A study of Mus musculus with 14 samples.

Results

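Of 14 anterior cortex RNA-seq libraries, made from C57BL/6J mice 15 months old, 3 held transcripts of Lhx8, a gene of ventral forebrain cholinergic neurons, at 2 CPM (counts in each mega-count of a library) or more. The 3 libraries were DG/DG replicate 3, DG/+ replicate 4 and WT replicate 1, so each genotype had 1 of them, and the other 11 libraries lay below 2 CPM. They were chosen by this measured value alone, after counts of 1 transcript per gene (the one with the most reads) were divided by the library total. Their comparison with the other 11 libraries is therefore a description, and no test was run on it. The groups were 4 mice homozygous (DG/DG) and 6 heterozygous (DG/+) for the DG allele of Vcp, whose ATPase unfolds ubiquitin-tagged proteins to pull them out of assemblies, and 4 wild-type mice (WT). Every library is labelled as total RNA of the anterior cortex of 1 mouse, and sex, litter, batch and dissection limits are not in the labels.

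Lhx8 is a LIM-homeodomain transcription factor that the developing ventral forebrain needs to make cholinergic neurons. Neurons of the basal forebrain and the interneurons of the striatum keep it into adulthood together with Chat (choline acetyltransferase), which makes acetylcholine. Basal forebrain cholinergic neurons send axons to the cortex, but their cell bodies, which hold most of their RNA, lie below it, and they carry the neurotrophin receptor Ngfr.

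Lhx8 (NM_010713) lies on the minus strand of chromosome 3 from 154306288 to 154330560, and Chat (NM_009891) on the minus strand of chromosome 14 from 32408203 to 32465909 (mm10). Slc18a3 (chromosome 14, 32462437 to 32464850), which loads acetylcholine into vesicles, lies within the span of Chat, so how reads were divided between both genes is uncertain. The long non-coding RNA AI606473 starts 260 bases beyond the 5′ end of Lhx8 and is read in the opposite direction. Promoters from RefSeq (GRCm38.p6, 250 bases before to 50 after the start) are shown for Lhx8, Chat and Slc18a3, which define the comparison and the cholinergic locus, and for Tac1, the named gene with a TAATTA. Capitals mark TAAT, the letters at the core of many homeodomain sites, on either strand, and a TAATTA holds 2 overlapping TAAT.
Lhx8, chr3:154330511-154330810, minus strand: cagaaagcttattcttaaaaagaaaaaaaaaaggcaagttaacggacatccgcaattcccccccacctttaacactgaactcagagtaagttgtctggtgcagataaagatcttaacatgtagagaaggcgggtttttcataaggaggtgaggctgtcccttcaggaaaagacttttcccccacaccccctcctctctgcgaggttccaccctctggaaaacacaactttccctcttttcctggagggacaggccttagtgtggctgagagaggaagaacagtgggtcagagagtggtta
Chat, chr14:32465860-32466159, minus strand: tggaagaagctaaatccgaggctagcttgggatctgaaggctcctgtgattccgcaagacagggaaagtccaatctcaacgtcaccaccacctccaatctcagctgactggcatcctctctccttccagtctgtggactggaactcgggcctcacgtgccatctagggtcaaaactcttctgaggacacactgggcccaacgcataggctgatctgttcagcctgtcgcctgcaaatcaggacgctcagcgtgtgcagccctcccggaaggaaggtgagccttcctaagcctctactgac
Slc18a3, chr14:32464801-32465100, minus strand: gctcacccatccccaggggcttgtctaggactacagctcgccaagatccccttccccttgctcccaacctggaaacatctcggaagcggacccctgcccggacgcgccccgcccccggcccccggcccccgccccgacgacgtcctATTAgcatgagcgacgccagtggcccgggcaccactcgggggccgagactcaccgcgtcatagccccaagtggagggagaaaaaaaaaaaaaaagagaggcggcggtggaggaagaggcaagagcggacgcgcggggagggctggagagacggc
Tac1, chr6:7554811-7555110, plus strand: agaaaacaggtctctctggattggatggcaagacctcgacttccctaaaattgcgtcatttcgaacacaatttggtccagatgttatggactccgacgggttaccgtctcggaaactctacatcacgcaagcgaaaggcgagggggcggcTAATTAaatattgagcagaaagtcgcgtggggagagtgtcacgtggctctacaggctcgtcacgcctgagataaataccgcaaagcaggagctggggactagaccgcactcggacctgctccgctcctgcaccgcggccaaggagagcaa
The promoters of Lhx8 and Chat held no TAAT in this window. Of 28 named genes looked up, 21 had a promoter in the table, and 12 of these 21 (57.1%) held a TAAT in a window (Gdnf has more than 1), against 58.0% of all 32851 promoters of the same length. TAATTA was present in 1 of the 21 (4.8%), against 5.3% of all promoters. The windows of Lhx8 and AI606473 share 240 bases.

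Lhx8 was covered by 72 reads in DG/DG replicate 3, 40 in DG/+ replicate 4 and 60 in WT replicate 1. Each of the other 11 libraries had 0 to 10 reads, with none in DG/+ replicate 5 and WT replicate 4. In CPM these were 5.68, 3.27 and 4.83 in the 3 libraries, against 0 to 0.97 with a median of 0.25 in the other 11. The library just inside the limit was DG/+ replicate 4 at 3.27 CPM, and the one just outside was DG/DG replicate 1 at 0.97 CPM, so limits of 1 and 3 CPM choose the same libraries. Depth was similar, with totals of 12.67, 12.24 and 12.43 M (mega) counts in the 3 libraries and 8.65 to 15.91 M in the other 11.

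Chat, the second defining marker, was at 13.65 CPM in DG/DG replicate 3, 9.40 in DG/+ replicate 4 and 10.54 in WT replicate 1. It lay between 0.50 and 3.01 CPM, with a median of 1.32, in the other 11 libraries. All 3 libraries were above all 11 for both markers. On the scale of log2((mean CPM + 0.1)/(mean CPM + 0.1)), used for every log2 ratio between the sets of libraries here, the 3 libraries were higher by 3.54 for Lhx8 and 2.65 for Chat, and with a pseudocount of 1 CPM in place of 0.1 by 2.1 for Lhx8 and 2.18 for Chat. In bulk RNA, more or fewer cells of a type and more or less RNA per cell cannot be told apart.

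Among the 5 genes listed for basal forebrain cholinergic identity, 4 had every one of the 3 libraries above every one of the other 11: Lhx8, Gbx1, Isl1 and Ngfr. Over the 16672 genes averaging 0.1 CPM or more, 362 genes (2.17%) were apart in this direction and 134 (0.804%) in the other. A positive log2 ratio was found for 9227 of the 16672, and these shares stand beside the counts of every list below. The median log2 ratio was 3.04 over the list and 0.03 over all these genes. Because a value of Lhx8 chose the libraries, nothing is read from these shares.

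Gbx1, a homeodomain transcription factor of the ventral forebrain, was at 1.74, 1.31 and 0.97 CPM in DG/DG replicate 3, DG/+ replicate 4 and WT replicate 1, against 0 to 0.19 in the other 11. Its log2 ratio was 3.04, and 4 of the other 11 libraries had no read of it. Isl1, a LIM-homeodomain partner of Lhx8 in cholinergic neurons, was at 8.60, 5.72 and 5.23 CPM in the same 3 libraries, against 0.08 to 1.82, a log2 ratio of 3.06. Both genes were lowest in WT replicate 1 among the 3 libraries, whereas Lhx8 was lowest in DG/+ replicate 4.

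Ngfr, a receptor shared by the neurotrophins, had 9.23, 4.90 and 8.05 CPM in DG/DG replicate 3, DG/+ replicate 4 and WT replicate 1, against 1.12 to 2.73 in the other 11 (log2 ratio 1.84). The sets did not overlap, although Ngfr was detected in all 14 libraries. Of the 7 listed neurotrophins and receptors at 0.1 CPM or more, it was the 1 that stood apart, and the list's median log2 ratio was -0.15. Zic4, the other identity gene and a zinc finger transcription factor, overlapped at 4.34, 1.72 and 3.06 CPM, against 1.01 to 4.95 (log2 ratio 0.25).

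The median log2 ratio was 1.66 over the 6 genes for making, carrying and breaking down acetylcholine. Of these, 3 stood apart upwards, against 2.17% over all genes. Besides Chat these were both transporters. Slc5a7, which takes choline into the terminal, had 25.25, 24.68 and 16.01 CPM in the 3 libraries, against 1.40 to 7.66 with a median of 3.01 (log2 ratio 2.53). Slc18a3, the vesicular transporter, had 3.24, 2.04 and 2.57 CPM, against 0 to 1.26 (log2 ratio 2.39).

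The genes that end acetylcholine signalling overlapped between the sets. Ache (acetylcholinesterase) had 63.36, 40.69 and 68.95 CPM in the 3 libraries, against 28.45 to 41.81 in the other 11, and DG/+ replicate 4 lay inside that range (log2 ratio 0.77). Prima1, which anchors acetylcholinesterase in the membrane, had 2.60, 3.68 and 2.09 CPM, against 0.49 to 2.54 (log2 ratio 0.94). Bche (butyrylcholinesterase) had 6.63, 4.82 and 4.91 CPM, against 5.09 to 8.88, and was the one gene of the list with a negative ratio, at -0.29.

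**Figure D1:**
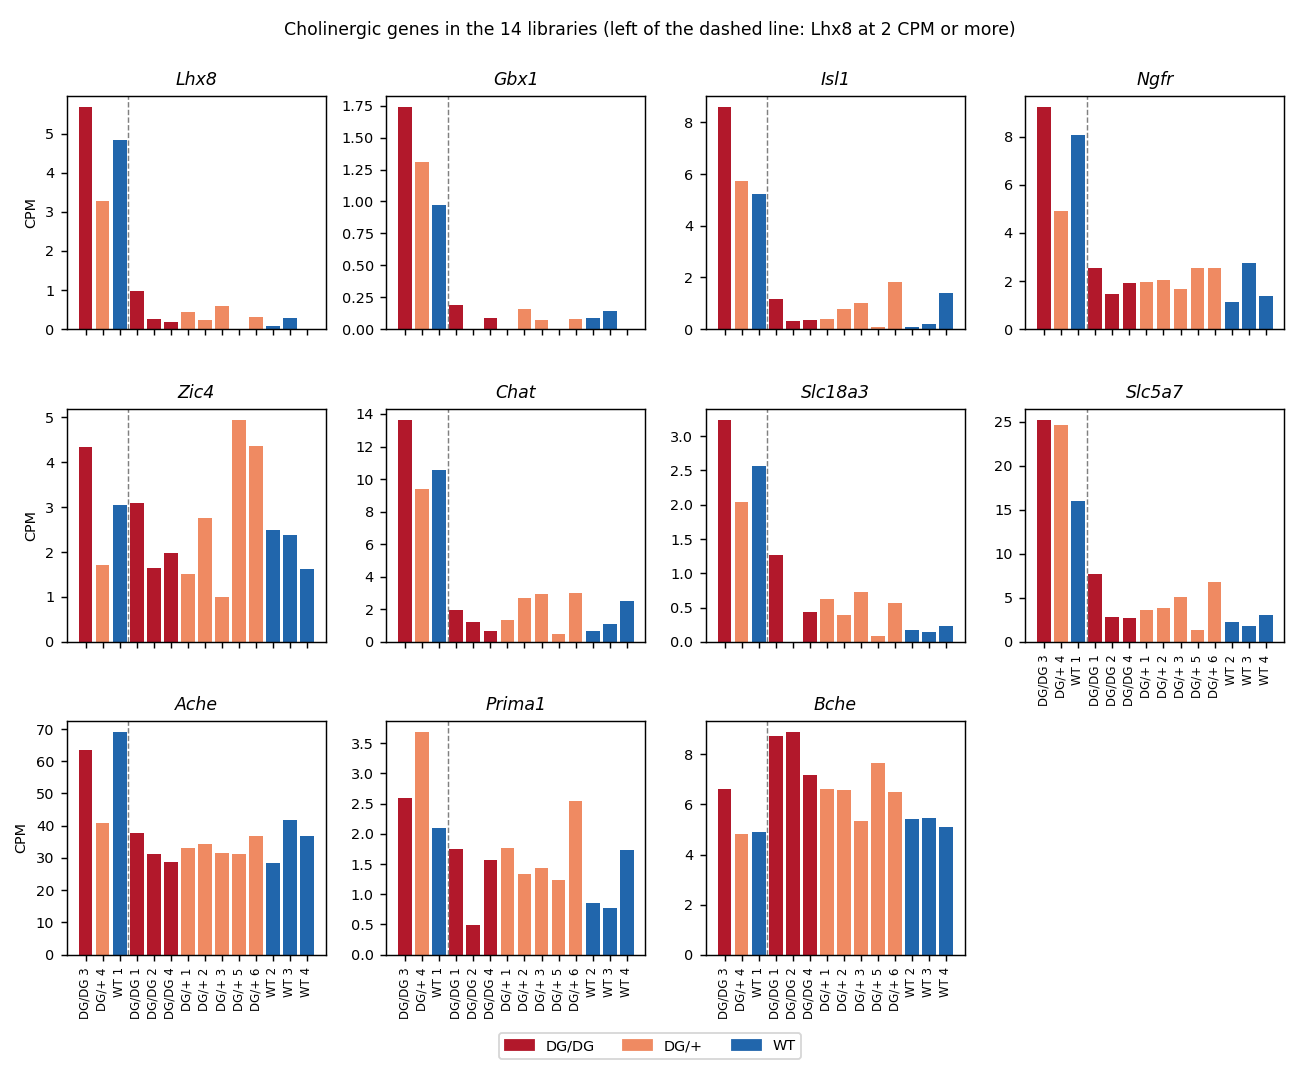
CPM of cholinergic genes in each library, with the 3 libraries at Lhx8 2 CPM or more beside the other 11 and genotypes marked by colour. For Lhx8, Gbx1, Isl1, Ngfr, Chat, Slc18a3 and Slc5a7 the 3 libraries lie above all others, and for Zic4, Ache, Bche and Prima1 the sets overlap.

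Most receptors for acetylcholine overlapped between the sets. Of 15 genes on the receptor list, a receptor modulator included, 1 stood apart upwards (2.17% over all genes) and 1 downwards (0.804%). The median log2 ratio was 0.03. Chrna2, a nicotinic subunit, had 1.42, 0.90 and 1.53 CPM in the 3 libraries, against 0 to 0.79 (log2 ratio 1.38). Chrm1, the main muscarinic receptor of cortical excitatory neurons, named after its values were seen, had 173, 172 and 169 CPM, against 179 to 219 (log2 ratio -0.22).

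Most of the LIM-homeodomain family overlapped between the sets. Of 18 family members and cofactors, 15 reached 0.1 CPM, Lhx8 and Isl1 stood apart upwards, and the median log2 ratio was 0. Lhx6, a close relative that marks cortical interneurons and is named after its values were seen, had 30.85, 21.49 and 28.88 CPM in the 3 libraries, against 16.90 to 24.02, with DG/+ replicate 4 inside the range. Lhx4 and Isl2, which mark cholinergic motor neurons, had no read in the 3 libraries and none in 8 of the other 11, and no gene listed for brainstem or habenular cholinergic neurons stood apart (2 of 7 in the table reached 0.1 CPM). Among 21 transcription factors of the embryonic subpallium, 2 were apart upwards and the median log2 ratio was 0.40. One was Nkx2-1, which acts upstream of Lhx8 in the medial ganglionic eminence, at 1.97, 0.57 and 0.97 CPM, against 0 to 0.42 (log2 ratio 2.14). The other was Ebf1, named after its values were seen, a transcription factor of direct-pathway striatal neurons, at 5.52, 6.21 and 5.39 CPM, against 2.55 to 4.90 (log2 ratio 0.62).

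The share of Lhx8 among the reads of both Lhx8 and Chat was 29.4% in DG/DG replicate 3 (exact Clopper-Pearson 95% interval 23.8 to 35.5), 25.8% in DG/+ replicate 4 (19.1 to 33.4) and 31.4% in WT replicate 1 (24.9 to 38.5). In the other 11 libraries together, with 42 Lhx8 and 229 Chat reads, it was 15.5% (11.4 to 20.4). Against Slc5a7, Lhx8 took 18.4%, 11.7% and 23.2% of both genes' reads in the 3 libraries and 7.7% in the other 11 together. Against Isl1 it took 39.8%, 36.4% and 48.0% in the 3 libraries, and 31.8% in the other 11 (24 to 40.5), an interval that overlapped those of all 3. Intervals cover counting error only. The Lhx8 reads in these shares chose the libraries, so a higher share in the 3 is built in and nothing is read from it.

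Within the 11 libraries below 2 CPM, 6 cholinergic genes were compared with Lhx8 on log2(CPM + 0.1), of which 5 are reported. Pearson's r with Slc5a7 was 0.729 (permutation p = 0.0112, adjusted over the 6 relations 0.0673) and Spearman's rho was 0.706 (permutation p = 0.0185, adjusted 0.0556). Without the 2 libraries farthest from the Lhx8 median, DG/+ replicate 5 and WT replicate 4, r was 0.734. For Slc18a3, r was 0.640 (permutation p = 0.0339, adjusted 0.102) and rho 0.706 (permutation p = 0.0182, adjusted 0.0556), and r was 0.656 without those 2 libraries. For Chat, r was 0.437 (permutation p = 0.182, adjusted 0.252) and rho 0.524 (permutation p = 0.102, adjusted 0.175), and r was 0.595 without them. Ngfr and Gbx1 had r of 0.316 and 0.531 (permutation p = 0.343 and 0.0964, adjusted 0.343 and 0.193) and rho of 0.264 and 0.317 (permutation p = 0.427 and 0.335, adjusted 0.427 and 0.402). For Ngfr r was 0.532 without those 2 libraries. For Gbx1 r was 0.162 without the same 2 libraries, so that value rested on them. None of the 5 relations passed an adjusted p of 0.05, at 0 to 10 Lhx8 reads a library. With a pseudocount of 1 CPM, r was 0.835 for Slc18a3 (adjusted permutation p = 0.01) and 0.767 for Slc5a7 (adjusted permutation p = 0.0157). DG/DG replicate 1 was the highest of the 11 for Lhx8 (0.97 CPM), Slc18a3 (1.26) and Slc5a7 (7.66). It was not among the 2 libraries left out above. The Lhx8 limit also set which libraries are among the 11, so no conclusion is drawn from these p-values.

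Across all 14 libraries, the genes nearest to both Lhx8 and Chat were ranked by the root mean square difference of centred log2(CPM + 0.1) profiles, averaged over both. Lhx8 and Chat themselves differed by 0.97 on this log2 scale. Slc5a7 was nearest at 0.65, followed by Tac1 (0.75), Slc10a4 (0.76), Isl1 (0.78), AI606473 (0.79), Gpr6 (0.80), Gbx1 (0.82), Drd1a (0.85), Slc35d3 (0.86) and Slc18a3 (0.87). Slc10a4, a vesicle protein of cholinergic and monoaminergic neurons, had 6.94, 5.23 and 3.78 CPM in the 3 libraries, against 0.09 to 2.72 (log2 ratio 2.62). AI606473, the neighbour of Lhx8, had 1.97, 1.39 and 1.13 CPM, against 0 to 0.32 (log2 ratio 3.18). The same libraries were high for these 10 genes, and the choice of libraries enters this ranking.

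**Figure D2:**
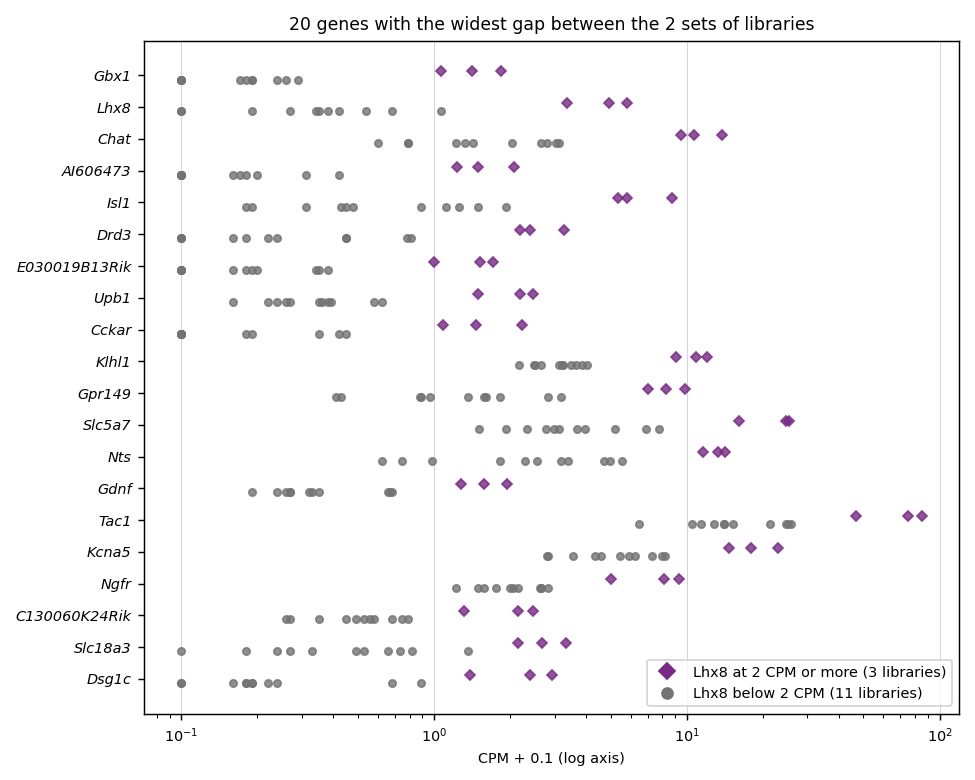
CPM + 0.1 on a log axis for the 20 genes with the widest gap between the lowest of the 3 libraries and the highest of the other 11, with 1 point per library. Gbx1 and Lhx8 have the widest gaps.

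The 20 genes with the widest gap upwards, Lhx8 among them, held 7 further genes already described: Gbx1, Chat, AI606473, Isl1, Slc5a7, Ngfr and Slc18a3. The other 19 had log2 ratios of 1.77 to 3.18 with a median of 2.53. Receptors and peptides made up several of the rest. Drd3, a dopamine receptor of the ventral striatum and the islands of Calleja, had 3.16, 2.29 and 2.09 CPM in the 3 libraries, against 0 to 0.71 in the other 11 (log2 ratio 3.0). Cckar, a cholecystokinin receptor, had 2.13, 0.98 and 1.37 CPM, against 0 to 0.35 (log2 ratio 3.0), and Gpr149, an orphan receptor, had 9.78, 8.17 and 6.92 CPM, against 0.31 to 3.09 (log2 ratio 2.53).

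Nts, the precursor of neurotensin, had 14.04, 11.44 and 13.19 CPM in the 3 libraries, against 0.52 to 5.46 (log2 ratio 2.21). Tac1, the precursor of substance P, had 75.20, 85.39 and 46.58 CPM, against 6.35 to 25.83 (log2 ratio 2.07). Gdnf, a neurotrophic factor, had 1.18, 1.47 and 1.85 CPM, against 0.09 to 0.58 (log2 ratio 2.06). WT replicate 1 was lowest of the 3 for Tac1 and highest for Gdnf. Klhl1, a kelch-like protein of the cytoskeleton, had 11.91, 8.99 and 10.78 CPM, against 2.06 to 3.92 (log2 ratio 1.77), and the potassium channel gene Kcna5 had 22.88, 17.90 and 14.56, against 2.71 to 8.12 (log2 ratio 1.79).

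The remaining genes of the 20 were Upb1, an enzyme of pyrimidine breakdown, Dsg1c, a desmosomal cadherin, and the transcripts E030019B13Rik and C130060K24Rik. Upb1 had 2.37, 1.39 and 2.09 CPM in the 3 libraries, against 0.06 to 0.52 (log2 ratio 2.56). Dsg1c had 2.84, 2.29 and 1.29 CPM, against 0 to 0.79 (log2 ratio 2.98). E030019B13Rik, which ends 2514 bases from Nkx2-1 on chromosome 12, had 1.42, 0.90 and 1.61 CPM, against 0 to 0.28 (log2 ratio 2.82). C130060K24Rik had 2.37, 2.04 and 1.21 CPM, against 0.16 to 0.69 (log2 ratio 1.92).

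Of the 362 genes apart upwards, DG/DG replicate 3 was the highest of the 3 libraries for 173, DG/+ replicate 4 for 103 and WT replicate 1 for 86. With TMM scaling the split was 258 genes upwards and 181 downwards, in place of 362 and 134. Asking only 2 libraries to stand apart gave 1184 genes upwards and 434 downwards without DG/+ replicate 4, 773 and 391 without WT replicate 1, and 476 and 215 without DG/DG replicate 3. DG/+ replicate 4 thus kept the most genes out of the count.

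Markers of striatal projection neurons had higher means in the 3 libraries, but their order among the 3 differed from that of Lhx8. Over all genes, 2.17% stood apart upwards and 9227 of 16672 had a positive log2 ratio. Of 20 markers listed for striatal projection neurons, 18 were in the table, and 9 of these stood apart upwards. All 18 had a positive log2 ratio, and the median was 1.61. Their summed level was 3292 CPM in DG/DG replicate 3, 3557 in DG/+ replicate 4 and 1823 in WT replicate 1, against 681 to 1814 in the other 11, where DG/+ replicate 6 was highest. Drd1a, the dopamine receptor of direct-pathway neurons, had 136.27, 157.55 and 64.36 CPM in the 3 libraries, against 11.55 to 53.82 (log2 ratio 1.78). Drd2, the receptor of indirect-pathway neurons, had 30.93, 33.26 and 11.58 CPM, against 1.24 to 15.86 (log2 ratio 1.92), and WT replicate 1 lay inside that range. Gpr6, an orphan receptor of indirect-pathway neurons, had 15.54, 15.53 and 8.53 CPM, against 0.41 to 5.95 (log2 ratio 2.04). Slc35d3, of a nucleotide sugar transporter family, had 9.47, 8.99 and 4.10 CPM, against 0.58 to 3.78 (log2 ratio 1.77). For these 4 genes WT replicate 1 was the lowest of the 3 libraries, while for Lhx8 and Chat DG/+ replicate 4 was. Other cholinergic genes were divided. WT replicate 1 was also lowest for Gbx1, Isl1, Slc5a7 and Slc10a4, and DG/+ replicate 4 was lowest for Ngfr and Slc18a3. The order thus does not set striatal genes apart from cholinergic ones. The part of striatal RNA in the cholinergic result was not tested.

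Hypothalamic peptides separated the 3 libraries among themselves. Pmch, the precursor of melanin-concentrating hormone, had 53.73 CPM in DG/DG replicate 3 and 41.19 in WT replicate 1, but 0.16 in DG/+ replicate 4, against 0.14 to 0.66 in the other 11. Hcrt (hypocretin) had 7.81 and 9.81 CPM in DG/DG replicate 3 and WT replicate 1 and no read in DG/+ replicate 4, against 0 to 0.26 in the other 11. Oxt (oxytocin) had 10.42 and 17.06 CPM in the same libraries, 0.33 in DG/+ replicate 4 and 0 to 0.99 in the other 11. Avp (vasopressin) had 8.36 and 17.22 CPM in DG/DG replicate 3 and WT replicate 1, 0.65 in DG/+ replicate 4 and 0 to 0.91 in the other 11. DG/+ replicate 4 was thus within the range of the other 11 for these 4 peptides, while its Lhx8 and Chat were above it.

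Of the 26 hypothalamic and preoptic markers, 25 reached 0.1 CPM and 3 stood apart upwards (Nts, Calcr and Peg3), against 2.17% over all genes. A positive log2 ratio was found for 23 of the markers, against 9227 of 16672 over all genes, and their median was 2.11. Their summed level was 1441 CPM in DG/DG replicate 3, 836 in DG/+ replicate 4 and 1455 in WT replicate 1, against 632 to 1063 in the other 11. Not all hypothalamic genes were low in DG/+ replicate 4, where Nts was above the other 11 (11.44 CPM, against 0.52 to 5.46) and Sim1, a hypothalamic transcription factor named after its values were seen, was at 1.72 CPM, against 0 to 2.52 with a median of 0.08. The part of hypothalamic RNA in the cholinergic result was not tested.

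**Figure D3:**
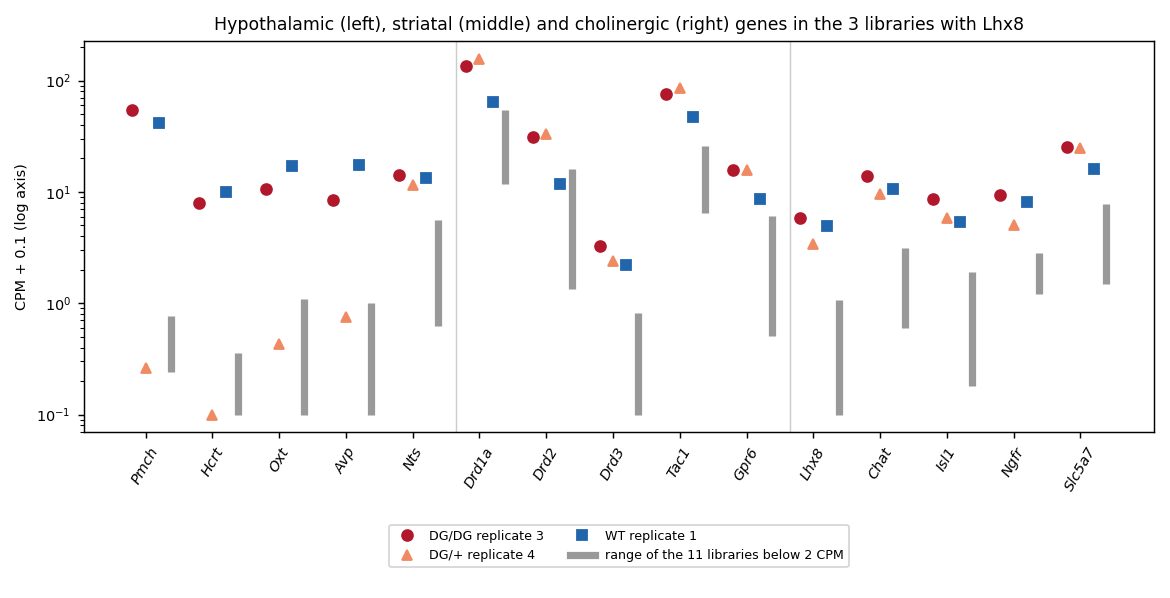
CPM + 0.1 on a log axis for hypothalamic, striatal and cholinergic genes, with a symbol for each of the 3 libraries and a grey bar for the range of the other 11. DG/+ replicate 4 falls within or below the bar for Pmch, Hcrt, Oxt and Avp and above it for Lhx8 and Chat.

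Of 12 interneuron markers measured, 3 stood apart upwards (2.17% over all genes). A positive log2 ratio was found for 5 (over all genes 9227 of 16672), and the list's median was -0.05. The 3 were the genes for making and loading GABA. Gad2, which makes GABA, had 373, 320 and 295 CPM in the 3 libraries, against 155 to 220 in the other 11 (log2 ratio 0.85). Gad1, the other GABA-making enzyme, had 488, 490 and 463 CPM, against 344 to 428 (log2 ratio 0.38). Slc32a1, the vesicular GABA transporter, had 94.53, 66.35 and 80.69 CPM, against 34.39 to 56.71 (log2 ratio 0.68). All 3 genes are shared by every GABAergic neuron, striatal projection neurons included.

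Genes lower in the 3 libraries differed by less. The 10 genes with the widest gap downwards had log2 ratios of -2.49 to -0.43 with a median of -0.86. Camk2a, a kinase abundant in cortical excitatory neurons, had 1221, 1281 and 1283 CPM in the 3 libraries, against 1517 to 2136 in the other 11 (log2 ratio -0.57). Grp, the precursor of gastrin-releasing peptide, had 1.74, 2.12 and 2.33 CPM, against 3.16 to 12.26 (log2 ratio -1.53). Dyrk2, a protein kinase, had 22.80, 20.35 and 22.12 CPM, against 27.85 to 32.38 (log2 ratio -0.43). Aqp1, a water channel of the choroid plexus, had 0.39, 0.33 and 0.32 CPM, against 0.52 to 8.40 (log2 ratio -2.49). The other 6 were Fam150b, Clec18a, 9330179D12Rik, Usp43, Sh2d4b and Dmp1, with ratios of -1.33, -1.02, -0.87, -0.84, -0.81 and -0.59.

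Cortical layer markers had a median log2 ratio of -0.24 over 14 genes. Of these, 1 stood apart downwards, Nr4a2, a nuclear receptor of deep layers and the claustrum, at 35.66, 32.11 and 34.84 CPM in the 3 libraries, against 41.31 to 105.55 (log2 ratio -0.91). Foxp2, a transcription factor of deep layers and of the striatum, was the 1 gene of the list apart upwards, at 44.90, 53.12 and 26.63 CPM, against 10.16 to 25.79 (log2 ratio 1.13). Slc1a2, the astrocytic glutamate transporter, had 4817, 4871 and 4659 CPM, against 5368 to 6487 (log2 ratio -0.29). Immediate early genes summed to 917, 917 and 916 CPM in the 3 libraries, within the 645 to 1621 of the other 11. All 10 had a negative ratio (median -0.47) without standing apart, while over all genes 9227 of 16672 had a positive one.

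Striatal and interneuron markers summed to more in all 3 libraries than in any of the other 11. None of the marker lists in this paragraph did so. Monoamine markers summed to 30.4 CPM in DG/DG replicate 3 and 29.1 in WT replicate 1, above the 6.8 to 18.7 of the other 11. In DG/+ replicate 4 they summed to 14.5 CPM. Choroid plexus markers summed to 338, 319 and 364 CPM in them, against 275 to 2170 in the other 11, and pituitary markers to 5.37, 0.65 and 8.45 CPM, against 1.5 to 4169. The median log2 ratio was -1.13 for choroid plexus, -3.24 for pituitary, -1.52 for hippocampus, -2.95 for cerebellum, -0.54 for meninges, -0.24 for the olfactory bulb, -0.20 for the thalamus, 0.63 for monoamine neurons and -1.12 for brainstem and habenular cholinergic factors. No gene of these lists stood apart upwards, and Aqp1 was the one apart downwards. The ratios use means, which high libraries among the other 11 can raise. Cerebellar markers summed to 21.15, 15.04 and 28.88 CPM in the 3 libraries, against a median of 22.8 in the other 11. DG/+ replicate 2 (133.42 CPM) and WT replicate 2 (97.8 CPM) were highest. Hippocampal markers summed to 36.69, 25.99 and 39.18 CPM, against 25.87 to 193.01 in the other 11 with a median of 41.3. No depletion in the 3 libraries is read from these ratios. Glial and vascular lists had medians of 0.27 for oligodendrocytes, with Mal alone apart upwards, -0.07 for astrocytes, 0.04 for microglia and -0.03 for endothelium.

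**Figure D4:**
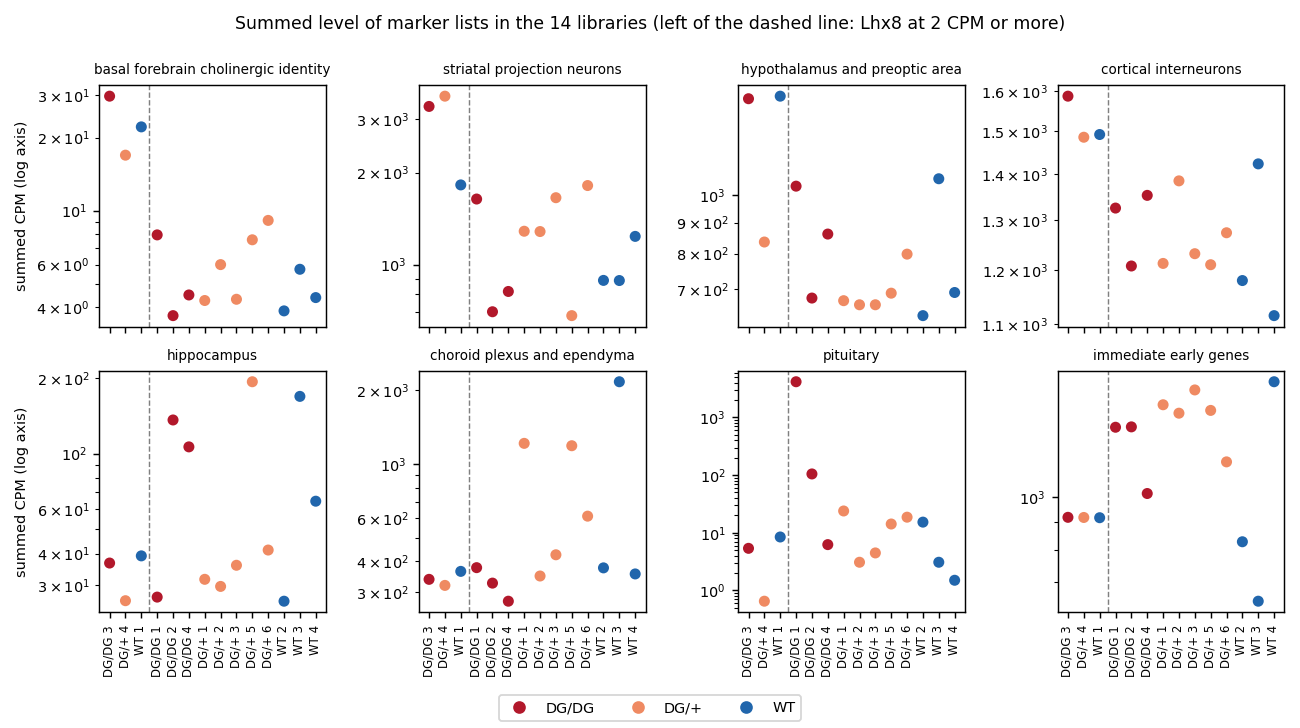
Summed CPM (log axis) of 8 marker lists in each library, 1 point per library, with the 3 libraries at Lhx8 2 CPM or more left of the dashed line and genotypes by colour. The 3 libraries lie above all others for basal forebrain identity, striatum and interneurons, DG/+ replicate 4 lies among the others for hypothalamus, and the 3 lie within or below the range of the others for hippocampus, choroid plexus, pituitary and immediate early genes.

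Between genotypes, which come from the labels and not from the rule, none of the cholinergic genes tested passed. Of the 5 identity genes 4 were tested, as Gbx1 did not pass the filter on low counts. The genes high in the 3 libraries have 1 high library in each genotype, so nothing is read from their tests. In edgeR's quasi-likelihood test over 14565 genes with Benjamini-Hochberg adjustment, 0 genes (0%) passed 0.05 in any of the 3 comparisons, and DESeq2 called 0 as well. At an unadjusted p below 0.05 edgeR had 747 genes for DG/DG over WT, 233 for DG/+ over WT and 481 for DG/DG over DG/+, and DESeq2 had 728, 211 and 473. Lhx8 averaged 1.77 ± 2.63 CPM in DG/DG (SD, n = 4), 0.81 ± 1.22 in DG/+ (n = 6) and 1.30 ± 2.36 in WT (n = 4). Chat averaged 4.38 ± 6.20 CPM in DG/DG, 3.31 ± 3.15 in DG/+ and 3.72 ± 4.61 in WT. For Lhx8 the SD exceeded the mean in every genotype.

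Without the 3 libraries, Lhx8 averaged 0.46 ± 0.44 CPM in DG/DG (n = 3), 0.31 ± 0.22 in DG/+ (n = 5) and 0.12 ± 0.14 in WT (n = 3), and Chat averaged 1.29 ± 0.63, 2.09 ± 1.13 and 1.45 ± 0.97 CPM in the same genotypes. The log2 fold change of Lhx8 was 0.43 for DG/DG over WT (95% interval -2.39 to 3.24, edgeR adjusted p = 0.973), -0.73 for DG/+ over WT (-3.47 to 2.0, adjusted p = 1.0) and 1.16 for DG/DG over DG/+ (-1.49 to 3.81, adjusted p = 0.972). For Chat it was 0.25 (-2.01 to 2.5, edgeR adjusted p = 0.982), -0.17 (-2.25 to 1.91, adjusted p = 1.0) and 0.42 (-1.63 to 2.47, adjusted p = 0.978) in the same order of comparisons. The direction turned for all 6 values when 1 of the 3 libraries was left out: Lhx8 for DG/DG over WT was -1.54 and Chat -1.53 without DG/DG replicate 3, and for DG/+ over WT they were 2.40 and 1.24 without WT replicate 1. For DG/DG over DG/+ they were -0.81 and -1.36 without DG/DG replicate 3.

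Of the 20 genes with the widest gap upwards, 11 passed edgeR's filter on low counts. They were chosen for 1 high library in each genotype, which balances the genotypes and widens the spread within them, so their genotype tests are not read. The median standard error of their log2 fold changes was 0.99 for DG/DG over WT, 0.92 for DG/+ over WT and 0.88 for DG/DG over DG/+, against 0.130, 0.118 and 0.118 over all tested genes. With membership of the 3 libraries as a covariate, the standard error of Chat for DG/DG over WT was 0.498, against 1.04 without it. Measured Lhx8 set the membership and Chat was high in all 3 libraries, so this fall is built in and nothing is read from it. Bche, which did not follow Lhx8, was the acetylcholine gene with the smallest p for DG/DG over WT, with a log2 fold change of 0.58 (95% interval 0.25 to 0.91, edgeR adjusted p = 0.886).

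**Figure D5:**
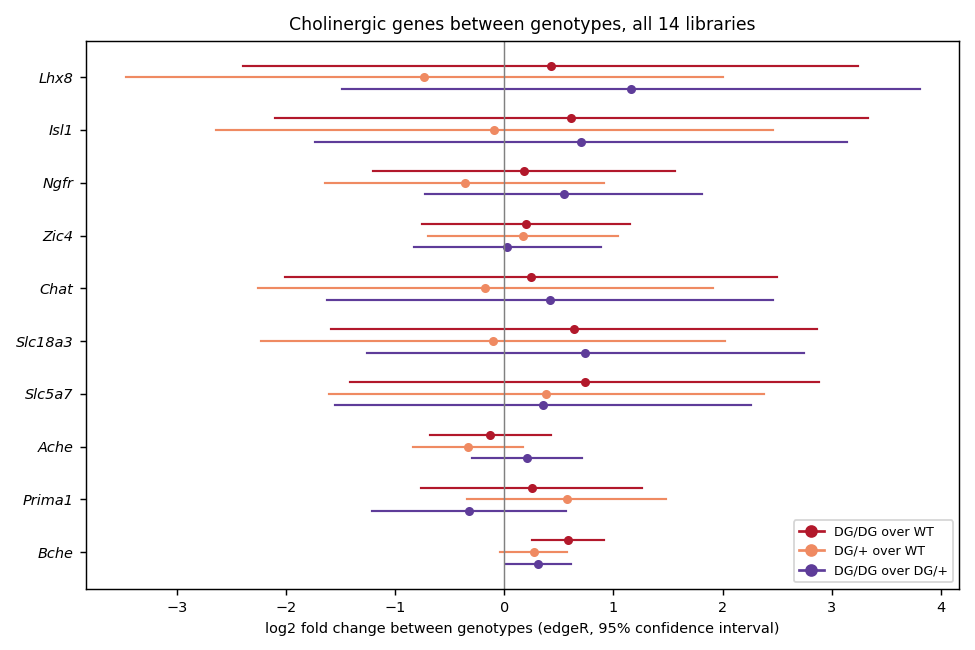
Log2 fold changes between genotypes with 95% confidence intervals from edgeR for cholinergic genes in all 14 libraries. The intervals of Lhx8 and Chat span 0 in every comparison, and those of Bche are the narrowest.

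Vcp itself averaged 111 ± 4.37 CPM in DG/DG (SD, n = 4), 99.43 ± 4.78 in DG/+ (n = 6) and 97.47 ± 8.60 in WT (n = 4), with a log2 fold change of 0.18 for DG/DG over WT (edgeR adjusted p = 0.886). It was at 116 CPM in DG/DG replicate 3, 105 in DG/+ replicate 4 and 104 in WT replicate 1. Counts per transcript do not tell the DG allele from the wild-type allele, so they do not check the genotype labels.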

How the data were processed

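The authors deposited raw read counts of 24939 RefSeq transcripts for 14 libraries, together with log2 values they normalized in a way not stated, per the file headers. The deposited log2 values were used as an alternative only. The submitters' processing notes name mm10 and edgeR, and for the aligner, counting tool and strand setting nothing is stated in the sources used here. Each of 19360 gene symbols kept its best-covered transcript (5579 left out), and CPM were computed on column sums of 8.65 to 15.91 M. Replicates are separate mice by their mouse numbers. Genotypes were compared with edgeR 4.0.16 (R 4.3.3, TMM, default filter, robust quasi-likelihood test, all 14 libraries in 1 fit), with DESeq2 1.42.0 as an alternative, and adjusted p below 0.05 was the threshold. The precision is given by 95% confidence intervals. The edgeR steps were tested on simulated counts.

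A gene is apart where all 3 chosen libraries lie above, or below, all other 11. This split was not tested. The 24 gene lists came from general knowledge. A gene is not reported here and was left out of the lists and named genes, but it stayed in the counts over all genes and in the adjustment over the 6 correlations. Genes named are Lhx8, Chat, Vcp, all members of both cholinergic lists, the 20 genes with the widest gap upwards and the 10 downwards (mean of at least 1 CPM in the higher set), the 10 nearest profiles (averaging 0.2 CPM or more), and the largest ratios, 4 at most, of each other list. Ebf1, Lhx6, Chrm1, Calcr, Sim1, Peg3, Mal, Lhx4 and Isl2 were named after their values were seen. Members and lists were chosen with earlier results of these data known. Correlations used 100000 permutations (two-sided) in Python 3.11.15 with scipy 1.17.1. Promoters and coordinates are from RefSeq tables of GRCm38.p6 (mm10), to which 19055 kept transcripts were matched. Alternatives covered scaling, pseudocount, filters, the Lhx8 limit, the deposited log2 values, the replicate number as a block, membership as a covariate and each library left out. Keeping all genes with at least 1 read was chosen after seeing the data.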

Additional observations from a re-analysis of the deposited data

Results flagged for a closer look

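Within each genotype, the gap of the highest library to its nearest neighbour was divided by the range of CPM, and a library stood out above Dixon's 95% critical value of 0.829 for 4 libraries or 0.625 for 6. Of 36 groups (12 genes in 3 genotypes), 16 stood out, and in all 16 the library was one of the 3 chosen by Lhx8. Chance flags about 1 in 20 groups chosen without regard to the values, but these libraries were chosen by Lhx8 and the genes vary with it, so the number is not read against that rate. DG/DG replicate 3 stood out for Lhx8 (0.855), Gbx1 (0.888), Isl1 (0.899), Ngfr (0.866) and Chat (0.904). DG/+ replicate 4 stood out for Lhx8 (0.824), Gbx1 (0.879), Isl1 (0.691), Ngfr (0.722), Chat (0.717), Slc18a3 (0.675) and Slc5a7 (0.767). WT replicate 1 stood out for Lhx8 (0.942), Gbx1 (0.855), Slc18a3 (0.963) and Slc5a7 (0.916). Isl1 and Chat passed the critical value in DG/DG and DG/+ and not in WT, where Isl1 also reached 1.39 CPM and Chat 2.54 CPM in WT replicate 4. The critical value is lower for 6 libraries than for 4, so no difference between genotypes is read from this.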

How the results depend on the processing

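The count of genes called between genotypes was 0 under every alternative run. With the replicate number as a block it was 0 as well, but that block turned the log2 fold change to 0.164 for Lhx8 and 0.359 for Chat in DG/+ over WT, and to -0.252 for Chat in DG/DG over DG/+. Same-numbered libraries had correlations of deviations of -0.215 to 0.292 with mixed signs, which cannot decide whether the numbers pair the mice. Replicate numbers are those of the sample titles, and the mouse numbers of some WT libraries differ from them. Pairing by mouse number was not tried. Without the 3 libraries, Chat was -0.132 for DG/DG over WT, 0.599 for DG/+ over WT and -0.731 for DG/DG over DG/+. With their membership as a covariate, Lhx8 was 0.181 and Chat 0.435 for DG/+ over WT, and Chat was -0.339 for DG/DG over DG/+. Measured Lhx8 set that membership, so nothing is read from its effect on either gene. None of these values passed the threshold before or after.

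With 1 library left out at a time, the log2 fold change of Lhx8 ran from -1.544 to 3.561 for DG/DG over WT. It ran from -1.112 to 2.402 for DG/+ over WT and from -0.813 to 1.528 for DG/DG over DG/+. These Lhx8 ranges cover 13 runs, since Lhx8 did not pass the filter on low counts without DG/+ replicate 4. That library held the highest Lhx8 of the DG/+ group, so the ranges may be too narrow. The log2 fold change of Chat, over all 14 runs, ran from -1.534 to 1.653, from -0.799 to 1.235 and from -1.364 to 1.046. Genes apart ran from 476 to 1184 upwards and from 215 to 434 downwards, since fewer libraries then have to stand apart. A pseudocount of 1 CPM moved the median log2 ratio to 1.49 for basal forebrain identity and 1.05 for acetylcholine handling. It also moved the correlation with Lhx8 in the 11 libraries to 0.835 for Slc18a3 and 0.767 for Slc5a7. Both passed the threshold, from which nothing is read, since Lhx8 set these 11 libraries. A larger pseudocount pulls ratios of low values to 0 by construction. Over all alternatives, counts, list medians and correlations held in 117 cases, many of them counts of 0 genes called, moved in 7 and newly passed the threshold in 2. Among the values of Lhx8 and Chat alone, 112 held, 2 moved and 18 changed sign. Depth limits genes such as Gbx1 most, with 12 to 22 reads in the 3 libraries.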
